A study of Mus musculus with 2 samples.

Results

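The genes described here are 46 enzymes and transporters that build and sulphate glycosaminoglycan chains, taken by symbol from a fixed list. All 46 were found among the 22096 gene symbols of the deposited files. They were compared between ScxGFP-positive and ScxGFP-negative cells of mouse embryonic forelimbs at stage E13.5. The embryos were of mixed strain background, and the cells of 6 forelimbs (3 pairs) were pooled for each sample and separated by fluorescence-activated sorting. ScxGFP is a green fluorescent reporter of *Scx*, the gene for scleraxis, a transcription factor that marks progenitors of tendons and ligaments. The negative cells are a mixture of limb cell types sorted as lacking the reporter. The positive library is not of tendon progenitors alone, since it also held skeletal muscle and cartilage marker transcripts, described below. Each population gave 1 library, so there were no replicates and no test, and every difference below describes these 2 libraries only.

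Glycosaminoglycans are long sugar chains carried by proteoglycan core proteins. A shared linker is first built on the core protein by stepwise addition of xylose, galactose and glucuronic acid. Chondroitin and dermatan sulphate then grow from it as repeats containing N-acetylgalactosamine, and heparan sulphate as repeats containing N-acetylglucosamine. Sulphotransferases decorate the chains with sulphate from the donor PAPS, and the pattern they leave decides which growth factors and matrix proteins the chain can hold. In the limb these chains fill cartilage matrix, coat collagen fibrils in tendon, and control the spread of FGF, BMP, Wnt and hedgehog ligands.

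Levels are in FPKM (fragments scaled to transcript length and to sequencing depth), added up over all transcripts of a gene. Differences are log2 ratios of FPKM + 1, ScxGFP-positive over ScxGFP-negative, where 1 is the pseudocount, and understate the change of genes at low levels. The 5 scalings named below are the deposited FPKM and 4 others: the median ratio of all genes set to 1, equal upper quartiles, equal sums, and equal sums without haemoglobin genes. The 4 others, 2 other pseudocounts, 2 other filters and the use of 1 transcript per gene make up 9 alternative settings. Of the 46 genes, 39 reached an FPKM of 1 in at least one library and are called measured. *B3galt6*, *Csgalnact2*, *Chst7*, *Chst13*, *Extl1*, *Ndst3* and *Ndst4* did not, and are described by their levels. Among all genes 12096 were measured, with a median log2 ratio of −0.27, a 1.20-fold shift toward the negative library, so ratios are also given relative to that median where it matters. *Scx* stood at 134 FPKM in positive cells versus 1.69 in negative cells, and 5 of 6 tendon markers were at least 2-fold higher in positive cells. The deposited ratio of coverage to FPKM corresponds to 2.28 gigabases of mapped sequence for positive cells versus 2.39 for negative cells if all mapped fragments entered the scaling.

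By the ratio of FPKM + 1, the genes of both enzymes that strip sulphate from finished heparan chains were at least 2-fold higher in the ScxGFP-positive library. Of the other 44 genes only *Csgalnact1*, which initiates chondroitin chains, was so by that ratio at the deposited scaling. *Sulf1* stood at 37.8 FPKM in positive cells versus 4.69 in negative cells, *Sulf2* at 50.2 in positive cells versus 18.8 in negative cells, and *Csgalnact1* at 3.04 in positive cells versus 0.840 in negative cells. At least 2-fold lower were 4 genes. *Hs3st1*, which places a rare sulphate on heparan, stood at 1.93 FPKM in positive cells versus 10.03 in negative cells, and *Papss2*, which makes PAPS, at 6.32 in positive cells versus 21.1 in negative cells. *Chst11*, which sulphates chondroitin, stood at 1.56 in positive cells versus 4.85 in negative cells, and *Ndst2*, which starts heparan sulphation, at 5.16 in positive cells versus 12.5 in negative cells. Of the 39 measured genes, 3 (7.69%) were thus at least 2-fold higher, against 4.03% of all measured genes, and 4 (10.3%) were at least 2-fold lower, against 9.98% of all. The share of lower genes was near that of all genes. These counts depend on the scaling: under each of the 4 others, 5 genes were at least 2-fold higher, with *Chsy3* and *Hs6st2* added, and 2 were at least 2-fold lower, *Hs3st1* and *Papss2*. With the median ratio of all genes set to 1, 708 of all genes passed 2-fold on the high side and 808 on the low side, against 488 on the high and 1207 on the low side in the deposited FPKM. The other 32 of the 39 measured genes were within 2-fold by the ratio of FPKM + 1 at the deposited scaling, beside 14.0% of all measured genes past 2-fold in either direction. Among the 32, some passed 2-fold before 1 was added. *Chsy3*, *Hs6st2* and *Hs6st3* stood in positive cells at 428%, 267% and 277% of their level in negative cells, and *Chst15* at 44.7%. The pseudocount of 1 kept these genes within 2-fold. The median log2 ratio of the 39 was −0.019, which is 0.25 above the median of all genes, and 28 of the 39 lay above that median. *Chsy3*, *Csgalnact1* and *Hs6st3* entered the 39 through positive cells only, which by itself favours a positive ratio. Without the filter the median was −0.036 over the 46 genes and −0.037 over all 22090 genes with a ratio. That setting adds genes below 1 FPKM in both libraries, whose ratios the pseudocount holds within 2-fold. It therefore cannot decide whether the gap to the median of all genes depends on the filter. With a minimum FPKM of 5 the median was −0.12 over 19 of the 46 and −0.33 over all genes.

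**Figure D1:**
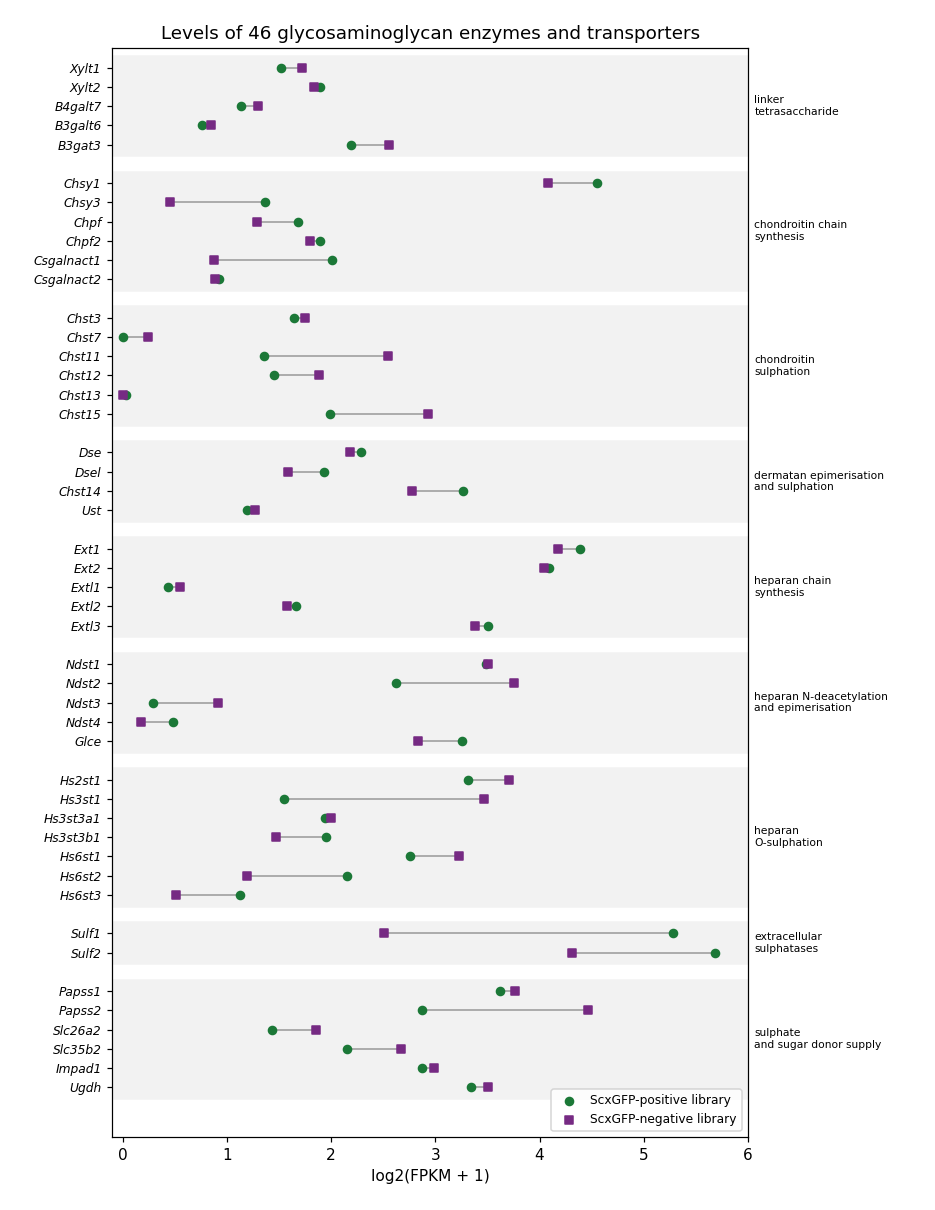
Level of each of the 46 genes, as log2(FPKM + 1), in the ScxGFP-positive library (green circles) and the ScxGFP-negative library (purple squares), ordered by step of the pathway, with 1 library per group. The widest gaps are those of *Sulf1* and *Sulf2*, with positive cells higher, and of *Hs3st1* and *Papss2*, with positive cells lower.

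The share of the pathway's transcripts that each step took also differed, a measure that does not depend on how the libraries are scaled to each other. The summed FPKM of the 46 genes was 295 in positive cells versus 257 in negative cells. The 2 extracellular sulphatases made up 29.9% of it in positive cells versus 9.13% in negative cells. Donor supply took 13.0% in positive cells versus 22.9% in negative cells, and heparan O-sulphation 9.16% in positive cells versus 14.3% in negative cells. Chondroitin sulphation took 2.86% in positive cells versus 6.50% in negative cells, whereas chondroitin chain synthesis took 11.2% in positive cells versus 8.53% in negative cells. These shares also move with the sulphatases, which are part of the sum. With them left out, donor supply took 18.5% in positive cells versus 25.2% in negative cells, and heparan O-sulphation 13.1% in positive cells versus 15.8% in negative cells. On the same basis, chain synthesis of chondroitin took 15.9% in positive cells versus 9.39% in negative cells, and chondroitin sulphation 4.08% in positive cells versus 7.16% in negative cells.

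**Figure D2:**
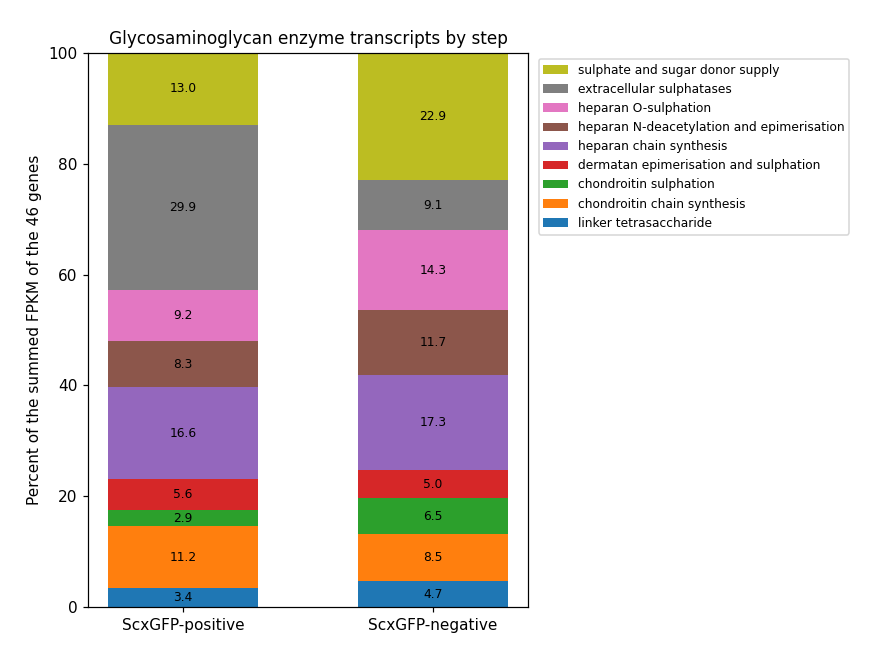
Share of the summed FPKM of the 46 genes taken by each of the 9 steps, as stacked bars for the ScxGFP-positive library (left) and the ScxGFP-negative library (right), with the percent written in each segment. Extracellular sulphatases take 29.9% in positive cells versus 9.13% in negative cells.

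The genes of the linker, which every chondroitin, dermatan and heparan chain needs, stood below 5 FPKM in both libraries. None of the 4 measured was past 2-fold, beside 14.0% of all measured genes. *Xylt1* and *Xylt2*, the xylosyltransferases that start the linker, stood at 1.86 and 2.73 FPKM in positive cells versus 2.31 and 2.58 in negative cells. *Xylt2* was the more abundant of the pair in both, with 59.5% of their summed FPKM in positive cells versus 52.8% in negative cells. The galactosyltransferase gene *B4galt7* stood at 1.20 FPKM in positive cells versus 1.46 in negative cells, and *B3galt6*, which adds the next galactose, at 0.696 in positive cells versus 0.795 in negative cells. *B3gat3*, which closes the linker with glucuronic acid, stood at 3.56 in positive cells versus 4.87 in negative cells. The median log2 ratio of the 4 measured linker genes, −0.19, was 0.080 above the all-gene median, so its sign depends on the scaling.

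The 5 measured genes for building the chondroitin chain lay above the median of all genes. Of them 1 was at least 2-fold higher, beside 4.03% of all measured genes. *Csgalnact1*, whose product adds the first N-acetylgalactosamine and whose loss stunts cartilage growth in mice, had a log2 ratio of 1.13 (NM_172753, mm9 chromosome 8, 70880682 to 71259041). About 27311 aligned bases lie behind its level in positive cells and 7897 behind that in negative cells. Its relative *Csgalnact2* stood at 0.894 FPKM in positive cells versus 0.853 in negative cells. *Csgalnact1* was therefore 77.3% of the pair in positive cells versus 49.6% in negative cells. The call for *Csgalnact1* ended with a pseudocount of 5, at a ratio of 0.46, and its locus in the files overlaps that of *1700125H03Rik* by 7252 bases, at 1.68 FPKM in positive cells versus 0.661 in negative cells. The libraries do not mark strand, so reads of overlapping genes may not be told apart.

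*Chsy1*, a chondroitin synthase gene, was among the 4 most abundant of the 46 genes in both libraries, at 22.5 FPKM in positive cells versus 16.0 in negative cells, a log2 ratio of 0.47. Its relative *Chsy3* stood at 1.58 FPKM in positive cells versus 0.369 in negative cells, a ratio of 0.91 that lay 1.18 above the median of all genes and passed 2-fold under each of the 4 other scalings. At these low levels the ratio of *Chsy3* moved with the pseudocount, to 1.84 with 0.1 and 0.29 with 5. The polymerising factor genes *Chpf* and *Chpf2*, whose products work as partners of the synthases, stood at 2.20 and 2.72 FPKM in positive cells versus 1.45 and 2.48 in negative cells. *Chsy1* made up 77.5% of the sum of these 4 genes in positive cells versus 78.8% in negative cells, and *Chsy3* 5.46% in positive cells versus 1.82% in negative cells. In a reference transcript set, 37.3% of the 50-base windows of the *Chpf2* transcript also occur in transcripts of *Smarcd3*, so its value may include reads of that gene. The 5 measured chain synthesis genes had a median of 0.47, which is 0.73 above the all-gene median, and it stayed positive under all 5 scalings. Of these, *Chsy3* and *Csgalnact1* were measured through positive cells only, which by itself favours a positive median. Over all 6 genes of the step, without the filter, the median was 0.43.

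Of the 4 measured chondroitin sulphation genes 1 was at least 2-fold lower and 0 were higher. Among all measured genes 9.98% were lower and 4.03% higher. *Chst11*, a chondroitin 4-O-sulphotransferase needed for cartilage growth plates in mice, had a log2 ratio of −1.19 (NM_021439, mm9 chromosome 10, 82448242 to 82658636). Relative to the median of all genes it was −0.93, so the call rests on the scaling of the libraries, and under 4 other scalings the ratio was within 2-fold, between −0.98 and −0.87. *Chst12*, which encodes a second enzyme of that specificity, stood at 1.74 FPKM in positive cells versus 2.70 in negative cells, and *Chst13*, of the same specificity, stood at 0.0225 in positive cells and was listed at 0 in negative cells, with about 84.8 aligned bases behind the value in positive cells. *Chst11* accordingly made up 47.0% of the 3 in positive cells versus 64.2% in negative cells. The ratio of its level to that of *Chsy1* was 0.0695 in positive cells versus 0.304 in negative cells.

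*Chst15*, which adds a second sulphate to sulphated chondroitin and gives the E form known from mouse mast cells, stood at 2.97 FPKM in positive cells versus 6.64 in negative cells. Its log2 ratio of −0.95 fell just short of 2-fold in the deposited FPKM. Relative to the median of all genes the ratio with a pseudocount of 1 was −0.68, and under the 4 other scalings it lay between −0.71 and −0.58. The chondroitin 6-O-sulphotransferase gene *Chst3* stood at 2.14 FPKM in positive cells versus 2.35 in negative cells. *Chst7*, of the same specificity, was listed at 0 in positive cells versus 0.186 in negative cells. The median of the 4 measured genes of this step was −0.69, −0.42 relative to the all-gene median, and it was below 0 under all 5 scalings.

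Dermatan sulphate is made from chondroitin by epimerisation and carried by decorin and biglycan in tendon. None of its 4 genes was past 2-fold, beside 14.0% of all measured genes. *Chst14*, the dermatan 4-O-sulphotransferase whose loss in humans causes a musculocontractural Ehlers-Danlos syndrome, had the highest level of the step, at 8.61 FPKM in positive cells versus 5.85 in negative cells. Its log2 ratio was 0.49, or 0.76 above the median of all genes. The epimerase genes *Dse* and *Dsel* stood at 3.88 and 2.82 FPKM in positive cells versus 3.54 and 1.998 in negative cells, and *Ust*, the uronyl 2-O-sulphotransferase gene, at 1.29 in positive cells versus 1.42 in negative cells. All 4 lay above the median of all genes, with a step median of 0.23, or 0.49 relative to it. The level of *Chst14* was 5.51 times that of *Chst11* in positive cells and 1.20 times in negative cells.

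None of the genes that build the heparan chain was past 2-fold, beside 14.0% of all measured genes. *Ext1* and *Ext2*, which form the polymerase complex and are the genes of hereditary multiple exostoses, stood at 19.9 and 16.0 FPKM in positive cells versus 17.1 and 15.5 in negative cells. *Extl3*, which starts the chain, stood at 10.4 in positive cells versus 9.42 in negative cells. *Extl2*, which can cap the linker, stood at 2.16 in positive cells versus 1.99 in negative cells, and *Extl1* at 0.355 in positive cells versus 0.466 in negative cells. The step took 16.6% of the summed FPKM in positive cells versus 17.3% in negative cells, but with the sulphatases left out of the sum 23.6% in positive cells versus 19.0% in negative cells. Its 4 measured genes had a median log2 ratio of 0.10, which is 0.37 above the all-gene median.

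The N-deacetylase N-sulphotransferases, which open the way for all later sulphation of heparan, differed in their balance. *Ndst1*, the broadly used form, was at 10.2 FPKM in positive cells versus 10.4 in negative cells. *Ndst2*, the form mouse mast cells need for heparin, had a log2 ratio of −1.14 (NM_010811, mm9 chromosome 14, 21542952 to 21553784). *Ndst1* made up 63.9% of the 4 genes of this family in positive cells versus 43.3% in negative cells, and *Ndst2* 32.2% in positive cells versus 52.4% in negative cells. The ratio of *Ndst2* was −0.87 relative to the median of all genes, so the call of a 2-fold difference rests on the scaling, while the shares do not. *Ndst3* stood at 0.227 FPKM in positive cells versus 0.888 in negative cells, and *Ndst4* at 0.395 in positive cells versus 0.127 in negative cells. *Glce*, the epimerase gene that turns glucuronic into iduronic acid, stood at 8.56 FPKM in positive cells versus 6.13 in negative cells.

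Among the O-sulphotransferases of heparan, *Hs3st1* differed most. Its product makes the pentasaccharide that binds antithrombin, and its log2 ratio of −1.91 was the lowest of the 46 genes (NM_010474, mm9 chromosome 5, 40005174 to 40035870). Of all 12096 measured genes it ranked 385th from the lowest ratio. It stayed at least 2-fold lower under all 9 alternative settings, between −2.32 and −1.12. About 7442 aligned bases lie behind its level in positive cells and 40344 behind that in negative cells. The other 3-O-sulphotransferase genes of the 46, *Hs3st3a1* and *Hs3st3b1*, stood at 2.85 and 2.86 FPKM in positive cells versus 3.00 and 1.77 in negative cells. *Hs3st1* made up 25.3% of the 3 in positive cells versus 67.8% in negative cells. Further 3-O-sulphotransferase genes outside the 46 stood below 1 FPKM in both libraries and are left out of these shares. *Hs3st3a1* and *Hs3st3b1* share part of their sequence: 8.56% of the 50-base windows of the *Hs3st3b1* transcript occur in *Hs3st3a1*. Separately, the *Hs3st3a1* locus overlaps that of *F930015N05Rik* by 1343 bases, and 32.1% of the windows of *Hs3st3a1* occur in that gene. It stood at 0.398 FPKM in positive cells versus 0.515 in negative cells. The values of *Hs3st3a1* and *Hs3st3b1* are therefore uncertain.

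The 6-O-sulphotransferase genes also differed in their balance. *Hs6st1* stood at 5.77 FPKM in positive cells versus 8.39 in negative cells, *Hs6st2* at 3.45 in positive cells versus 1.29 in negative cells, and *Hs6st3* at 1.18 in positive cells versus 0.426 in negative cells. *Hs6st1* was 55.5% of their sum in positive cells versus 83.03% in negative cells, while *Hs6st2* was 33.2% in positive cells versus 12.8% in negative cells. The log2 ratio of *Hs6st2*, 0.96, fell just short of 2-fold, lay 1.22 above the median of all genes and passed 2-fold under each of the 4 other scalings. It was 1.35 with a pseudocount of 0.1, but 0.43 with a pseudocount of 5 and 0.68 with only its most abundant transcript. *Hs2st1*, the only 2-O-sulphotransferase gene of heparan, stood at 8.94 FPKM in positive cells versus 12.03 in negative cells. The 7 genes of this step had a median of −0.053, which is 0.21 above the all-gene median.

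**Figure D3:**
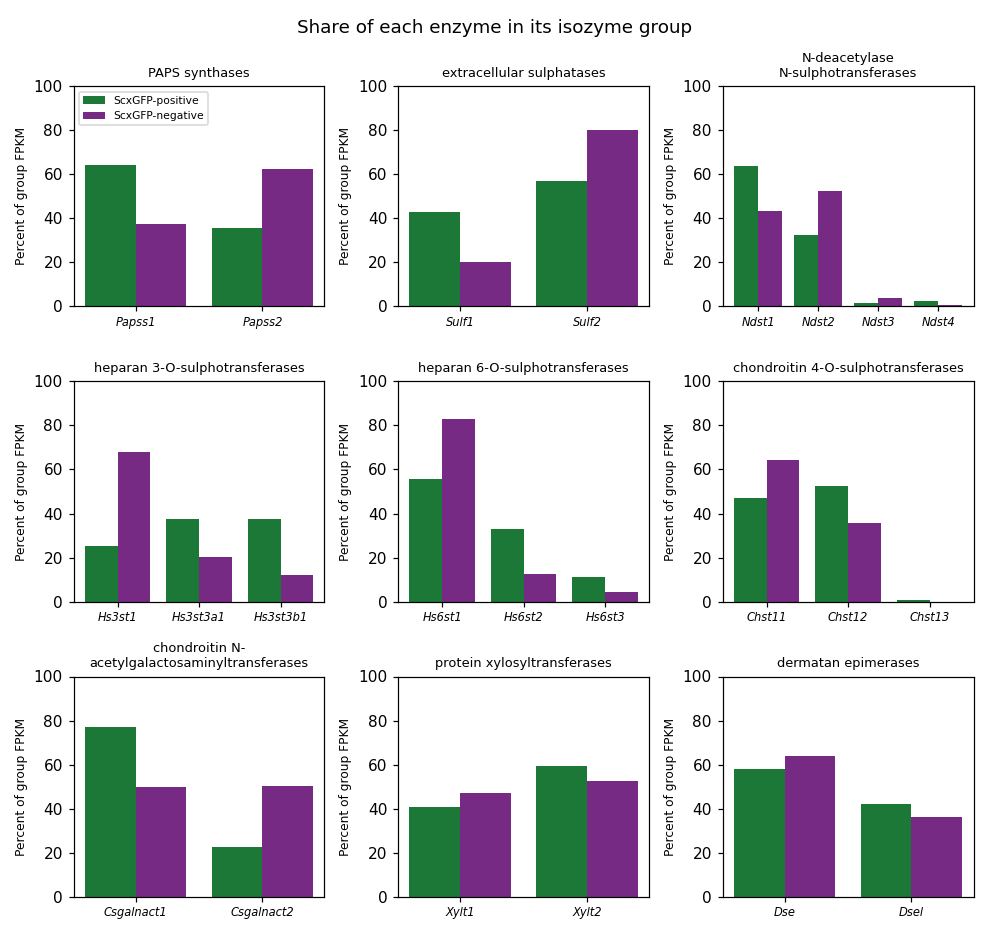
Percent of the summed FPKM of an isozyme group that each of its genes takes, in the ScxGFP-positive library (green, left bar) and the ScxGFP-negative library (purple, right bar), for 9 of the 13 groups. Groups hold genes of the 46 only. The leading gene differs between the libraries for PAPS synthases, N-deacetylase N-sulphotransferases, chondroitin 4-O-sulphotransferases and heparan 3-O-sulphotransferases, with chondroitin N-acetylgalactosaminyltransferases near even in negative cells.

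*Sulf1* and *Sulf2* encode endosulphatases that act outside the cell and remove 6-O-sulphate from heparan chains, which in animal models frees Wnt ligands and dampens FGF signalling. They were the most abundant and the next most abundant of the 46 genes in positive cells, *Sulf2* leading. In negative cells *Sulf2* ranked after *Papss2*, and *Sulf1* ranked 21st. The log2 ratio of *Sulf1* was 2.77 (mm9 chromosome 1, 12682511 to 12850453), the 103rd highest of all 12096 measured genes, and that of *Sulf2* was 1.37 (NM_028072, mm9 chromosome 2, 165898589 to 165981156), the 306th. Both stayed at least 2-fold higher under all 9 alternative settings, between 2.14 and 3.17 for *Sulf1* and between 1.21 and 1.80 for *Sulf2*. *Sulf1* was 42.9% of the pair in positive cells versus 20.0% in negative cells. Most of *Sulf1* was assigned to the transcript NM_001198565, 85.9% in positive cells versus 95.8% in negative cells. The *Sulf2* locus overlaps that of *Ncoa3* by 154 bases, and *Ncoa3* stood at 3.86 FPKM in positive cells versus 6.62 in negative cells.

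Donor supply held the most abundant gene of the set in negative cells. *Papss2*, a PAPS synthase whose loss gives the short-limbed brachymorphic mouse, had a log2 ratio of −1.59 and remained at least 2-fold lower under all 9 alternative settings, between −1.72 and −1.19. *Papss1*, the other PAPS synthase gene, stood at 11.3 FPKM in positive cells versus 12.6 in negative cells. The level of *Papss2* was 0.558 times that of *Papss1* in positive cells and 1.67 times in negative cells. *Slc26a2*, the sulphate importer mutated in diastrophic dysplasia, stood at 1.71 FPKM in positive cells versus 2.62 in negative cells. *Slc35b2*, which carries PAPS into the Golgi, stood at 3.45 in positive cells versus 5.35 in negative cells. *Impad1*, which clears the spent donor there, stood at 6.31 in positive cells versus 6.95 in negative cells, and *Ugdh*, which makes the precursor of glucuronic acid, at 9.15 in positive cells versus 10.3 in negative cells. The 6 genes had a median of −0.29, which was −0.024 relative to that of all genes. Of the 6, 5 were within 2-fold, beside 14.0% of all measured genes past it.

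The difference in *Papss2* lay mainly in 1 of its 2 transcripts. NM_001201470, which starts upstream (mm9 chromosome 19, 32670205 to 32741677), stood at 5.29 FPKM in positive cells versus 19.3 in negative cells, a log2 ratio of −1.69. NM_011864, which starts 24290 bases downstream at 32694495, stood at 1.03 in positive cells versus 1.80 in negative cells, a ratio of −0.47. The upstream transcript made up 83.7% of *Papss2* in positive cells versus 91.5% in negative cells. Both end at the same position, and the division of reads from shared exons between them is an estimate of the program that computed FPKM.

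**Figure D4:**
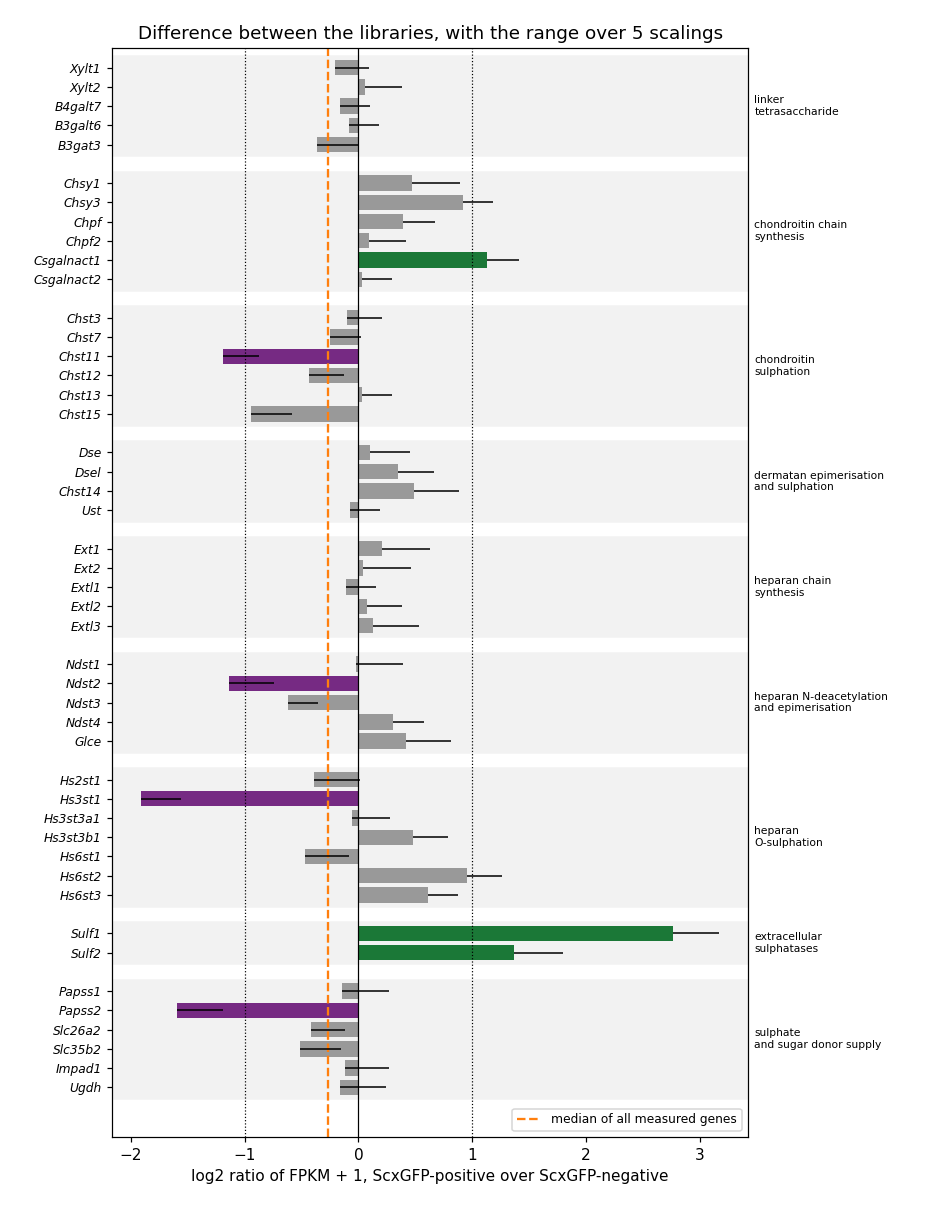
Log2 ratio of FPKM + 1, ScxGFP-positive over ScxGFP-negative, for the 46 genes by step; green bars are at least 2-fold higher, purple bars at least 2-fold lower and grey bars within 2-fold, and the black line on each bar is the range over 5 scalings of the libraries. Dotted lines mark 2-fold and the dashed line the median of all measured genes, −0.27; of the 7 genes past 2-fold, *Csgalnact1*, *Sulf1*, *Sulf2*, *Hs3st1* and *Papss2* keep to the same side of 2-fold over the whole range.

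Promoter windows are shown for the genes past 2-fold that have one in the RefSeq promoter table (build GRCm38.p6, 250 bases before to 50 after the start, 300 in all), so that the sequence before the starts of higher and lower genes can be compared. The table matched 36 of the 46 genes, *Sulf1* and *Csgalnact1* not among them. Capitals mark E-boxes, CANNTG, the six-letter site read by the class of factor to which scleraxis belongs; the motif reads the same on both strands. *Sulf2* has 2 listed starts, and *Papss2* has 2 whose distance of 24290 bases equals that between the transcripts above, so the first is taken here as that of the upstream transcript.
Sulf2, upstream start (chr2:166155634-166155933, minus strand): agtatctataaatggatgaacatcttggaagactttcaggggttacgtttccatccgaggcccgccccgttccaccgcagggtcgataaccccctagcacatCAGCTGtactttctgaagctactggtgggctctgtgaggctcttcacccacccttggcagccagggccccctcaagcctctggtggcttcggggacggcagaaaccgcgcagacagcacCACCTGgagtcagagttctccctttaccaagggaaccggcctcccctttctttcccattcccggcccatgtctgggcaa
Sulf2, downstream start (chr2:166155236-166155535, minus strand): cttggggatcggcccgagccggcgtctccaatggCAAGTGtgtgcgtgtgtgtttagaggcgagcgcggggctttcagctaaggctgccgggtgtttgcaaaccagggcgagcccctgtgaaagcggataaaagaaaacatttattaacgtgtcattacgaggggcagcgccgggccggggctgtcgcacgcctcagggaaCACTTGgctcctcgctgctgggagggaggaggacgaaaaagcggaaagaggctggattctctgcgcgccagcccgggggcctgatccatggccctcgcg
Papss2, upstream start (chr19:32595465-32595764, plus strand): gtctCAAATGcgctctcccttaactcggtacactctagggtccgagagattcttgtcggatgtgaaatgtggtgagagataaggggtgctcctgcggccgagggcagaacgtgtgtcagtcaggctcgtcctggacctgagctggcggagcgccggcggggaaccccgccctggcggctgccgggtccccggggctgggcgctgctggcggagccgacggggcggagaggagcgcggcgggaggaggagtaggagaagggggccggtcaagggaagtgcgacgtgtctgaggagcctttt
Papss2, downstream start (chr19:32619755-32620054, plus strand): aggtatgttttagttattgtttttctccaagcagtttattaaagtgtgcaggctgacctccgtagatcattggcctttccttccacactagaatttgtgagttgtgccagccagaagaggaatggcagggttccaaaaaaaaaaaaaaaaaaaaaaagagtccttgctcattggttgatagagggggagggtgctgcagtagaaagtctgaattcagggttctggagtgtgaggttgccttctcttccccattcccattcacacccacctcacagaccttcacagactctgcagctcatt
Chst11 (chr10:82985247-82985546, plus strand): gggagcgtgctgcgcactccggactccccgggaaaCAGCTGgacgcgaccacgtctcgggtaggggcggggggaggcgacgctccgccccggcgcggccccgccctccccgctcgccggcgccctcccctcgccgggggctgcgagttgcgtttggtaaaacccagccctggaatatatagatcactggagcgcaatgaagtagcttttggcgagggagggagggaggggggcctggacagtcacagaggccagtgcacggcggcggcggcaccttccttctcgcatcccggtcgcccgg
Hs3st1 (chr5:39644582-39644881, minus strand): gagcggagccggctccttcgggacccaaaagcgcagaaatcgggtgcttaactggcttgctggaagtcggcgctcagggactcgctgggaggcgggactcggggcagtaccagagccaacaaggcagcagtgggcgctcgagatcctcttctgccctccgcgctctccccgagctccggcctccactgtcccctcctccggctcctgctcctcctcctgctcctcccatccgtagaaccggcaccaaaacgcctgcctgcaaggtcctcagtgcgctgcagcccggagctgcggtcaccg
Ndst2 (chr14:20734513-20734812, minus strand): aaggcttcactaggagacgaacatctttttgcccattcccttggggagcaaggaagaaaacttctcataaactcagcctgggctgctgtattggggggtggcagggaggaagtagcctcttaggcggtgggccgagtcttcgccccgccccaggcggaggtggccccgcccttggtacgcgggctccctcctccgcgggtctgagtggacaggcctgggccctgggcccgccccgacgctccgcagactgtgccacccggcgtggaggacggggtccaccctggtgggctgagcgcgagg

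Each *Sulf2* window holds 2 E-boxes, the upstream *Papss2* and the *Chst11* window hold 1 each, and the *Hs3st1*, *Ndst2* and downstream *Papss2* windows hold 0. An E-box is present in 57.8% of the 45 windows of the matched genes and in 72.3% of all 32851 windows, so the motif is common and a match is a description only. A window with 0 lacks these letters, which says nothing of binding. The GC box GGGCGG, searched on both strands, is in 62.2% of the 45 windows and in 35.7% of all, and the TATA box TATAAA in 4.44% of the 45 and in 13.6% of all. The median GC content is 65.3% in the 45 windows and 52.7% in all. The *Papss2* starts differ in this respect: the upstream window has 27 CpG dinucleotides and a GC content of 66.3%, and the downstream window 1 and 44.3%.

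Cell types other than tendon progenitors also differed between the libraries, and in such pools fewer cells of a type cannot be told apart from less RNA per cell. All 7 mast cell markers were at least 2-fold lower in positive cells, with a summed level of 5.49 FPKM in positive cells versus 456 in negative cells, and *Ms4a2* listed at 0 in positive cells. All 6 macrophage and leukocyte markers were lower as well, at 5.67 FPKM in positive cells versus 298 in negative cells. So were 5 of 6 endothelial markers, at 2.95 in positive cells versus 45.5 in negative cells. The positive level was 19.3% of the negative one for *Hs3st1*, 29.9% for *Papss2*, 32.2% for *Chst11* and 41.2% for *Ndst2*, against 1.20% for the summed mast cell markers and 6.48% for the endothelial ones. Of 6 epidermal markers 6 were lower, at 11.3 FPKM in positive cells versus 304 in negative cells, as were 6 of 6 erythroid markers, at 155 in positive cells versus 6425 in negative cells, and 5 of 6 Schwann cell and nerve markers, at 3.02 in positive cells versus 33.6 in negative cells. The part of these cells in the lower levels of *Hs3st1*, *Papss2*, *Chst11*, *Chst15* and *Ndst2* was not tested.

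Because *Papss2* and *Chst11* are well known from cartilage, cartilage markers were set beside them. Of 7 measured markers 1 was at least 2-fold higher, or up to 3 under the other scalings, and 0 were lower under any of the 5. The list summed to 101 FPKM in positive cells versus 76.4 in negative cells, of which *Col2a1* alone held 68.1 versus 40.4. In the deposited FPKM 3 of the 7 had a ratio above 0, and 4, *Sox9*, *Sox5*, *Sox6* and *Col9a1*, a ratio below 0. The median log2 ratio of the 7, −0.41, was −0.15 relative to the all-gene median, and its sign depended on the scaling. Beside the higher *Sulf1*, *Sulf2* and *Csgalnact1*, the skeletal muscle markers were higher too, all 5 measured, with a sum of 145 FPKM in positive cells versus 17.8 in negative cells. The summed tendon markers stood at 200.3 FPKM in positive cells versus 8.91 in negative cells. Which of these cells carry the sulphatase transcripts was not tested.

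**Figure D5:**
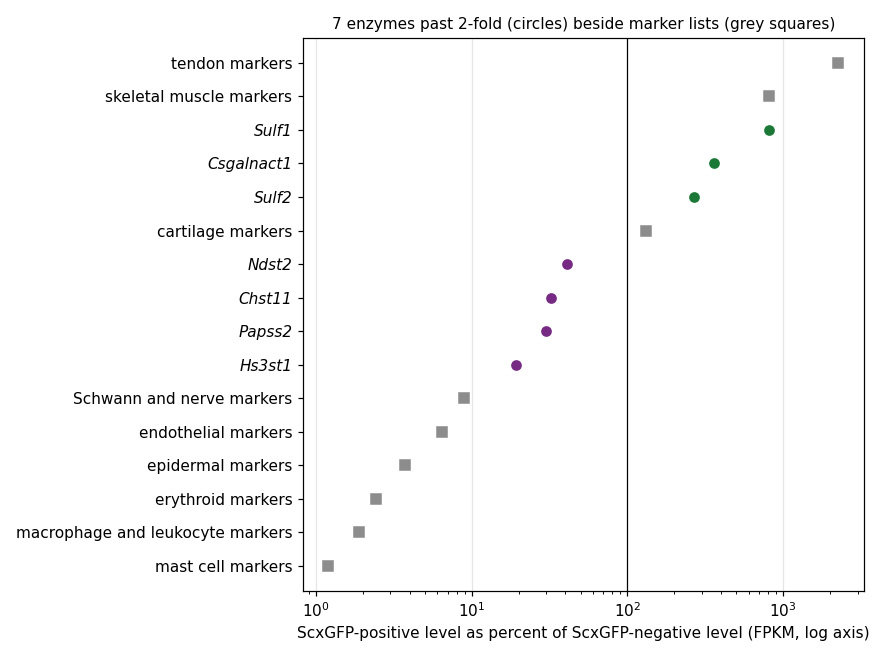
Level in the ScxGFP-positive library as a percent of that in the ScxGFP-negative library (FPKM, log axis) for the 7 genes past 2-fold (green circles higher, purple circles lower) and for the summed markers of 9 cell types (grey squares). The 4 lower genes lie between 19.3% and 41.2%, the summed blood, epidermal, endothelial and nerve markers between 1.20% and 8.97%.

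Further genes of the pathway outside the 46, among them hyaluronan synthases, keratan sulphate enzymes and sugar transporters, were mostly within 2-fold. So were all measured genes, of which 14.0% were past 2-fold. Of 18 listed genes in the files 10 were measured. Of these, 1 was at least 2-fold higher and 0 were lower, against 4.03% higher and 9.98% lower among all measured genes. Their median log2 ratio was 0.026, which is 0.29 above the all-gene median. The gene past 2-fold was *Has2*, the main hyaluronan synthase of the limb, at 4.74 FPKM in positive cells versus 1.56 in negative cells, a ratio of 1.17. *Slc35d1*, which carries the sugar donors of chondroitin into the endoplasmic reticulum and whose loss gives short bones in mice, stood at 2.88 FPKM in positive cells versus 6.29 in negative cells, a ratio of −0.91. *Chst2*, a 6-O-sulphotransferase gene for N-acetylglucosamine, stood at 4.07 in positive cells versus 2.33 in negative cells, and *B3gnt7*, of keratan sulphate, at 0.454 in positive cells versus 1.18 in negative cells.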

How the data were processed

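RNA was sequenced from 1 ScxGFP-positive and 1 ScxGFP-negative pool of forelimb cells, grouped by the labels' cell population. Per the labels' protocols, total RNA was extracted with a column kit and amplified cDNA was prepared by the NuGEN Ovation RNA-Seq v2 chemistry, which does not mark strand. TopHat 1.4.1 and Bowtie 0.12.7 are named with build mm9 per the submitters' processing notes; the deposited files are named for Cufflinks and have its column layout, with no version stated there. The authors' deposited FPKM and coverage (a signal of aligned base depth, per the file headers) are listed per RefSeq transcript, with the transcript length in bases. No row of the 46 genes had a failed status. FPKM was summed per symbol and 1 added before log2 ratios; positions count from 0 in the files, so 1 was added to each start. Genes needed 1 FPKM or more in either library, and the threshold was 2-fold; 1 library per group allows no test. Read counts are not in the FPKM, and precision per gene is unknown. All 46 genes are named by rule, with up to 4 genes of the largest absolute ratio from each other pathway list. Members and lists were chosen with earlier results of these data known. Other scalings, pseudocounts, filters and a single transcript per gene were tried. The ratio script was tested on simulated data (Python 3.11.15, pandas 2.3.3). Shared windows of 50 bases were counted against GENCODE transcripts, for either strand. The values of 1 gene of lysosomal breakdown are not reported here.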

Additional observations from a re-analysis of the deposited data

How the results depend on the processing

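Of the 46 genes, *Sulf1* and *Sulf2* stayed at least 2-fold higher and *Hs3st1* and *Papss2* at least 2-fold lower under all 9 alternatives, and 28 of the 39 measured genes were past 2-fold in none. The number at least 2-fold higher was 5 rather than 3 with the median ratio of all genes set to 1, with equal upper quartiles, with equal sums and with equal sums without haemoglobin genes, through *Chsy3* and *Hs6st2*. Of all measured genes 655 to 802 were higher under those 4 scalings, against 488 as reported. A pseudocount of 0.1 gave 6 higher and 5 lower, beside 712 higher and 1782 lower of all 12096 genes. A pseudocount of 5 gave 2 higher, beside 222 of all genes. The number at least 2-fold lower was 2 rather than 4 under those 4 scalings and with a pseudocount of 5, through *Chst11* and *Ndst2*. Of all measured genes 808 to 914 were lower under those scalings and 394 with a pseudocount of 5, against 1207 as reported. The median log2 ratio of the measured genes was 0.25 with the median ratio of all genes set to 1, 0.24 with equal upper quartiles, 0.33 with equal sums and 0.27 with equal sums without haemoglobin genes, against −0.019 as reported. It was −0.036 without the filter, over 46 genes, where the median of all genes was −0.037, and −0.12 with a minimum FPKM of 5, over 19, where that of all genes was −0.33. Directions of genes with small ratios depend on the scaling: of 39, 10 turned sign. With 1 library per group none could be left out. No paired analysis was possible because each group has 1 sample. *Chst7* and *Chst13* rest on very little sequence, at most 976 aligned bases for *Chst7* (negative cells) and 84.8 for *Chst13* (positive cells).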

Other observations

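Genes of lysosomal enzymes that take glycosaminoglycans apart lay, as a group, near the shift of all genes. Of 17 listed genes 15 were measured: 2 passed 2-fold on the low side, or 1 under each of the 4 other scalings, and 0 on the high side, beside 9.98% of all measured genes on the low side. Their median log2 ratio was −0.34, or −0.074 relative to the all-gene median. *Gusb*, the beta-glucuronidase gene, stood at 3.21 FPKM in positive cells versus 10.96 in negative cells, a ratio of −1.51 that was past 2-fold under all 5 scalings. *Hexa*, a hexosaminidase gene, stood at 4.92 FPKM in positive cells versus 9.39 in negative cells, and *Arsb*, the sulphatase gene for chondroitin 4-sulphate, at 4.69 in positive cells versus 8.34 in negative cells. Lysosomal enzymes are abundant in macrophages, and the 6 macrophage and leukocyte markers were all lower in positive cells. The part of such cells in these values was not tested.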
